A study of Mus musculus with 4 samples.

Results

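The 33 genes described here encode the enzymes of glycolysis, the transporters that bring glucose in and take lactate out, and proteins of the response to low oxygen. They were taken from a list of symbols, and all 33 were found among the 31053 features of the deposited tables. Their transcripts were counted in 13078 cells of 4 single-cell RNA libraries, of which 7 classes of immune cells are compared below. Live cells that carried CD45, a surface protein of leukocytes, had been sorted from C57BL/6 mice at day 14. The Rab37 KO tumor library came from Rab37 KO mice that had received LLC cells (a carcinoma line from mouse lung), and the WT tumor library came from WT mice given the same cells. The Rab37 KO and WT normal lung libraries came from mice of each genotype that had received Matrigel without tumor cells. Rab37 belongs to the Rab GTPases, which steer the movement of vesicles; the sources used here give no Cre driver and no number of animals for a library. Each group was 1 library, so no difference had a replicate check and no p-value is given. KO stands for Rab37 KO below.

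Glycolysis splits glucose into pyruvate in the cytosol, and lactate dehydrogenase turns pyruvate into lactate when pyruvate does not enter mitochondria. When oxygen is low, the prolyl hydroxylases that mark HIF-1 alpha for destruction slow down, and the HIF transcription factor switches on glycolytic genes, angiogenic genes such as Vegfa, and its own hydroxylases. Activated neutrophils and macrophages are known to rely on glycolysis, and macrophages of tumors are known to express hypoxia-response genes.

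The libraries held 2725 cells in KO tumor, 644 in WT tumor, 4646 in KO normal lung and 5063 in WT normal lung after filters, with unique molecular identifiers (UMIs, 1 per captured transcript) that summed to 5183771 in WT tumor and to between 30053499 and 34369993 in the other libraries. Rab37 itself had 8 UMIs in KO tumor against 24 in WT tumor, and 13 in KO normal lung against 292 in WT normal lung, or 0.266 CPM (counts scaled to a common total of UMIs, here 1000000) in KO tumor against 4.63 CPM in WT tumor and 0.385 CPM in KO normal lung against 8.50 CPM in WT normal lung. No source used here names the deleted stretch of Rab37, so 3′ counts check the deletion only in part. The KO tumor library held 1662 cells with Y-linked UMIs alone and 33 with Xist alone, whereas the WT tumor library had Xist alone in 417 cells, Y-linked UMIs alone in 0 and both in 1, so genotype and sex cannot be told apart in tumor. Both normal libraries held cells of both sexes. The tumor files carry software version 3.1.0 in their headers and the normal files 3.0.1, so tissue and version cannot be told apart. Between 2 and 11 cell barcodes of each library also occurred in another. Cells were clustered without the 33 genes, and a class such as neutrophil or T cell means clusters that resemble that type by its marker genes.

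Short stretches upstream of 6 members are shown because they hold, or lack, the core motif bound by HIF. Each line gives the 250 bases before the RefSeq start of transcription in GRCm38.p6, 5′ to 3′ on the gene's own strand. Capitals mark ACGTG on either strand (its reverse complement reads CACGT) and likewise GCGTG on either strand (its reverse complement reads CACGC). Overlapping matches are joined and counted as 1.
Slc2a1: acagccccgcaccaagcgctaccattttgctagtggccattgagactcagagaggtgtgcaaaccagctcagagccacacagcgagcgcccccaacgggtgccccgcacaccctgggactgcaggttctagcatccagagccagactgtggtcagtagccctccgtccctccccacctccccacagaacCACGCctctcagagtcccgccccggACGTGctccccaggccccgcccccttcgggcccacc
Slc16a3: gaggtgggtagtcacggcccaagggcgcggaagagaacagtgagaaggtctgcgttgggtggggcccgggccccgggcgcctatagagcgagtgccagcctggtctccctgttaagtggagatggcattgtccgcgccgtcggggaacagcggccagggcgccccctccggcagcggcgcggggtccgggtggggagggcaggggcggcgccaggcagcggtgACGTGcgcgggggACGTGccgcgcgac
Bnip3: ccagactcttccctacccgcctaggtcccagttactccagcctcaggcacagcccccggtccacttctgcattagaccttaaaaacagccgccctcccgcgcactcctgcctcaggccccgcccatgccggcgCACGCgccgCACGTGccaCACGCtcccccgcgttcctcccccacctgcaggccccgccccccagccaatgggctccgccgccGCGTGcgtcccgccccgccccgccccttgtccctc
Egln3: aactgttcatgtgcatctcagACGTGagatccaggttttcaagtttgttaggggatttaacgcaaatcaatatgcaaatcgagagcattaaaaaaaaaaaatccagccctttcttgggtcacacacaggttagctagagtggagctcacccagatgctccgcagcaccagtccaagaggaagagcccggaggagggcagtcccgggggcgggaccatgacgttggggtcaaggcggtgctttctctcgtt
Ankrd37: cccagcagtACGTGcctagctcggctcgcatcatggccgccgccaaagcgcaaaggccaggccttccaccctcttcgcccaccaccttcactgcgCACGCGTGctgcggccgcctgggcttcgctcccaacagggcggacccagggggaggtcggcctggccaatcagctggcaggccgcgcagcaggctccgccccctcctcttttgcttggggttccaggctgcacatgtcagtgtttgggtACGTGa
Gpi1: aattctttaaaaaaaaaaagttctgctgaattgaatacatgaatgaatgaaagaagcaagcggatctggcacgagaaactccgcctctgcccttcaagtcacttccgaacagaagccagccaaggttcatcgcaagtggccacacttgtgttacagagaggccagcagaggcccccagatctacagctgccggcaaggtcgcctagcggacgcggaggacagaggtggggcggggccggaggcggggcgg

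The Slc2a1 stretch lies at chr4:119108495-119108744 on the plus strand and holds 2 matches, the nearer 31 bases before the start. That of Slc16a3 lies at chr11:120948817-120949066 on the plus strand and holds 2 matches, the nearer 9 bases before the start. Bnip3 has 4 matches at chr7:138909507-138909756, and Ankrd37 has 3 at chr8:45999851-46000100, both on the minus strand. Egln3 has 1 match, 224 bases before the start, at chr12:54203875-54204124 on the minus strand. Gpi1, at chr7:34230337-34230586 on the minus strand, has none in this window. RefSeq gave a stretch for 30 of the 33 members, all but Slc2a3, Bnip3l and Ndrg1. ACGTG or its reverse complement occurred in 18 of the 30, against 18.5% of 27025 genes. GCGTG or its reverse complement occurred in 20 of the 30, against 30.9% of genes, and 28 of the 30 held either motif, against 41.5%. Tpi1 and Gpi1 were the members with neither. A match is a run of letters and not a measured binding site.

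The members made up a larger share of all UMIs in tumor than in normal lung. They were 1.16% of UMIs in KO tumor and 0.803% in WT tumor, against 0.352% in KO normal lung and 0.350% in WT normal lung. The class with the largest share was monocytes and macrophages in KO tumor, at 1.38%, followed by neutrophils of the same library at 1.23%. WT tumor neutrophils had 0.969% and WT tumor monocytes and macrophages 0.927%. In B cells the 4 libraries stayed between 0.203% and 0.235%. The members' share differed less between libraries in B cells than in these myeloid cells. Levels below are CPM of the summed UMIs of a class, and the intervals in parentheses are exact 95% intervals that cover counting error only. A member counts as higher or lower when its CPM differed at least 1.5-fold, with at least 10 UMIs over both libraries.

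**Figure D1:**
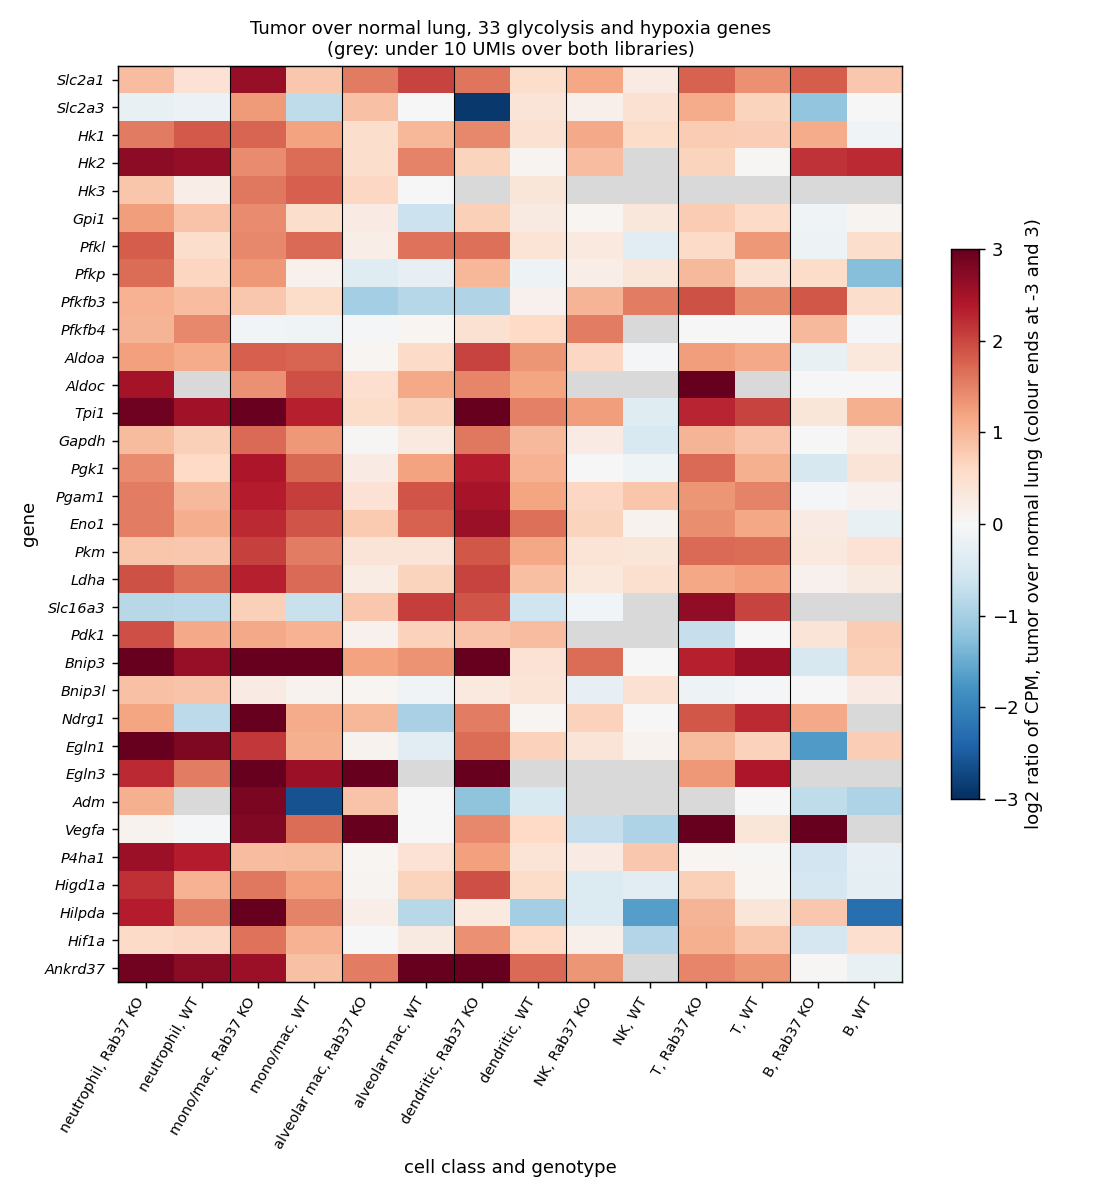
Ratio of tumor to normal lung CPM on a log2 scale for each of the 33 members (rows) in 7 cell classes (columns), for Rab37 KO and WT mice, with grey cells under 10 UMIs; a gene with no UMI in 1 library is drawn at the bound that 3 counts allow. Monocytes and macrophages had 31 of 33 members higher in KO tumor, and B cells 8 of 30.

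In monocytes and macrophages of KO mice 31 of 33 members were higher in tumor than in normal lung and 0 were lower, where 17.3% of all genes measured were higher and 23.0% lower. In WT mice 25 of 33 were higher and 3 lower, where 21.2% of all genes were higher and 26.1% lower. The median log2 ratio of the members was 1.75 in KO mice and 1.22 in WT mice, while that of all genes was -0.09 in KO and -0.07 in WT mice. Egln3, Bnip3, Hilpda, Ndrg1 and Tpi1 had the widest folds in KO mice, and Pfkfb4 and Bnip3l differed by less than 1.5-fold in both genotypes. The class held mostly cluster 13, led by Pf4, Ppbp and Ccl24, in KO tumor, and cluster 26, led by Gpnmb and Trem2, in WT tumor. In both normal libraries it held mostly clusters 3 and 22, led by Ace and Adgre4, cluster 10, led by C1qa, and cluster 8, led by Ly6c2 and Ccr2.

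Of the 2 glucose transporters, both were higher in KO tumor, and they went opposite ways in WT tumor. Slc2a1 encodes GLUT1, the widespread glucose transporter. It had 326 CPM in tumor KO, 81.4 CPM in tumor WT, 53.2 CPM in normal KO and 46.3 CPM in normal WT cells. Tumor was above normal lung in both genotypes, 6.14-fold higher (5.37 to 7.04) in KO and 1.76-fold higher (1.46 to 2.13) in WT mice, and no count intervals overlapped between tissues. Slc2a3, the high-affinity GLUT3, had 94.4 CPM in tumor KO, 17.7 CPM in tumor WT, 38.7 CPM in normal KO and 29.8 CPM in normal WT cells. It was 2.44-fold higher (2.07 to 2.88) in KO tumor but 1.69-fold lower (1.22 to 2.38) in WT tumor than in the normal lung of the same genotype. Its KO tumor value was the highest of the 4 and its WT tumor value the lowest. With each cluster held by both tissues weighted alike, Slc2a3 was not 1.5-fold lower in WT tumor.

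Among the early steps of glycolysis, the hexokinases and Pfkl were higher in tumor in both genotypes, whereas Gpi1, Pfkp and Pfkfb3 passed 1.5-fold in KO mice alone and Pfkfb4 in neither. Hexokinase 2, encoded by Hk2, traps glucose in the cell as its phosphate. Hk2 had 241 CPM in tumor KO, 206 CPM in tumor WT, 89.3 CPM in normal KO and 64.4 CPM in normal WT cells. The 2 tumor values lay above both normal ones. Of the other hexokinases, Hk1 was 3.36-fold higher in KO and 2.32-fold higher in WT tumor, and Hk3 was 2.98-fold higher in KO and 3.49-fold higher in WT tumor. Gpi1, glucose phosphate isomerase, had 599 CPM in tumor KO, 309 CPM in tumor WT, 226 CPM in normal KO and 216 CPM in normal WT cells. It passed 1.5-fold in KO mice, at 2.65-fold, and missed it in WT mice, at 1.43-fold. Pfkp, a phosphofructokinase subunit that commits sugar to glycolysis, had 176 CPM in tumor KO, 78 CPM in tumor WT, 71.9 CPM in normal KO and 71 CPM in normal WT cells. Only the KO tumor value of Pfkp stood apart from the other 3, while the liver-type subunit Pfkl was 2.7-fold higher in KO and 3.26-fold higher in WT tumor. Of the enzymes that set the phosphofructokinase activator, Pfkfb3 was 1.75-fold higher (1.53 to 2.01) in KO tumor, and Pfkfb4 had 30.3 CPM in tumor KO, 30.5 CPM in tumor WT, 32 CPM in normal KO and 32.8 CPM in normal WT cells.

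The later steps of the pathway were higher in tumor throughout. Tpi1, triose phosphate isomerase, had 661 CPM in tumor KO, 505 CPM in tumor WT, 85.1 CPM in normal KO and 100.2 CPM in normal WT cells. It was 7.76-fold higher (6.99 to 8.64) in KO and 5.04-fold higher (4.54 to 5.6) in WT tumor, the largest fold of any glycolytic enzyme in both genotypes. Pgk1, phosphoglycerate kinase, is an X-linked gene that makes the first ATP of the pathway. It had 751 CPM in tumor KO, 382 CPM in tumor WT, 139 CPM in normal KO and 116 CPM in normal WT cells. Gapdh, the dehydrogenase between these steps and a common reference gene, had 2809 CPM in tumor KO, 1962 CPM in tumor WT, 863 CPM in normal KO and 800.2 CPM in normal WT cells. Gapdh was thus 3.26-fold higher in KO and 2.45-fold higher in WT tumor. Aldoa, the main aldolase, was 3.45-fold higher in KO and 3.38-fold higher in WT tumor, Pgam1 5.08-fold in KO and 4.21-fold in WT tumor, and Eno1 4.76-fold in KO and 3.72-fold in WT tumor. Pkm, pyruvate kinase, was 4.14-fold higher in KO and 2.88-fold higher in WT tumor. Eno1 and its near copy Eno1b share much sequence, and Eno1b held 55 UMIs in all cells against 25564 for Eno1.

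Lactate handling and pyruvate diversion followed. Ldha, lactate dehydrogenase A, had 1056 CPM in tumor KO, 732 CPM in tumor WT, 209 CPM in normal KO and 226 CPM in normal WT cells. Tumor was 5.06-fold higher (4.73 to 5.42) in KO and 3.24-fold higher (3.01 to 3.49) in WT mice. Slc16a3, the lactate exporter MCT4, had 342 CPM in tumor KO, 109.9 CPM in tumor WT, 209 CPM in normal KO and 175 CPM in normal WT cells. It was 1.64-fold higher (1.53 to 1.76) in KO tumor and 1.59-fold lower (1.4 to 1.82) in WT tumor, so the genotypes went opposite ways. With each cluster held by both tissues weighted alike, Slc16a3 was not 1.5-fold lower in WT tumor. Pdk1, the kinase that shuts pyruvate dehydrogenase, was 2.18-fold higher in KO and 2.05-fold higher in WT tumor.

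The widest folds in both genotypes were those of the hypoxia-response members Bnip3 and Egln3. In WT mice the glycolytic enzyme Tpi1 came next, above every other hypoxia-response member. Bnip3, a mitophagy receptor, had 263 CPM in tumor KO, 104 CPM in tumor WT, 12.1 CPM in normal KO and 9.81 CPM in normal WT cells. Its tumor level was 21.7-fold higher (16.5 to 29.1) in KO and 10.6-fold higher (7.78 to 14.8) in WT mice. Bnip3l, its close relative, had 247 CPM in tumor KO, 195 CPM in tumor WT, 209 CPM in normal KO and 180.0 CPM in normal WT cells and differed by less than 1.5-fold between tissues. Egln3, a HIF prolyl hydroxylase that HIF itself induces, had 136 CPM in tumor KO, 32.9 CPM in tumor WT, 5.83 CPM in normal KO and 5.54 CPM in normal WT cells. KO tumor was 23.3-fold higher (15.7 to 36.1) than KO normal lung, and WT tumor 5.94-fold higher (3.81 to 9.55) than WT normal lung. The related Egln1 was 4.37-fold higher in KO and 2.08-fold higher in WT tumor. Hilpda, a lipid-droplet protein that blocks the lipase ATGL, had 484 CPM in tumor KO, 216 CPM in tumor WT, 41.5 CPM in normal KO and 77.2 CPM in normal WT cells. Both tumor values stood above both normal ones, with KO tumor highest.

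Ndrg1, a stress gene repressed by Myc, had 216 CPM in tumor KO, 42.3 CPM in tumor WT, 25.4 CPM in normal KO and 19.4 CPM in normal WT cells. Vegfa, the growth factor for blood vessels, had 401 CPM in tumor KO, 219 CPM in tumor WT, 58.3 CPM in normal KO and 68.4 CPM in normal WT cells. It was 6.88-fold higher (6.06 to 7.85) in KO and 3.2-fold higher (2.79 to 3.67) in WT tumor, and the 2 normal values were close together. Ankrd37, a HIF target of little known function, was 5.96-fold higher in KO and 1.84-fold higher in WT tumor. Hif1a, which encodes the regulated HIF subunit, had 388 CPM in tumor KO, 252 CPM in tumor WT, 126 CPM in normal KO and 123 CPM in normal WT cells. It was 3.09-fold higher in KO and 2.05-fold higher in WT tumor. P4ha1, a collagen prolyl hydroxylase, was 1.91-fold higher in KO and 1.94-fold higher in WT tumor, and Higd1a, a mitochondrial protein, 2.98-fold higher in KO and 2.34-fold higher in WT tumor. Adm, which encodes the vasodilator adrenomedullin, had 9.9 CPM in KO tumor and 1.4 CPM in KO normal lung, and 1 UMI in WT tumor against 10 in WT normal lung.

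Other values moved with tissue in the same cells. UMIs of the 10 neutrophil markers were 2.38% of those in monocytes and macrophages of KO tumor and 1.04% in WT tumor, against 1.07% in KO normal lung and 0.685% in WT normal lung. UMIs of the 16 genes of a dissociation-stress list were 1.40% in KO tumor and 0.898% in WT tumor, against 2.27% in KO normal lung and 2.14% in WT normal lung. Without the cells that had 1% or more neutrophil-marker UMIs, the lower members in WT tumor numbered 1. The part of these differences in the members' levels was not tested.

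**Figure D2:**
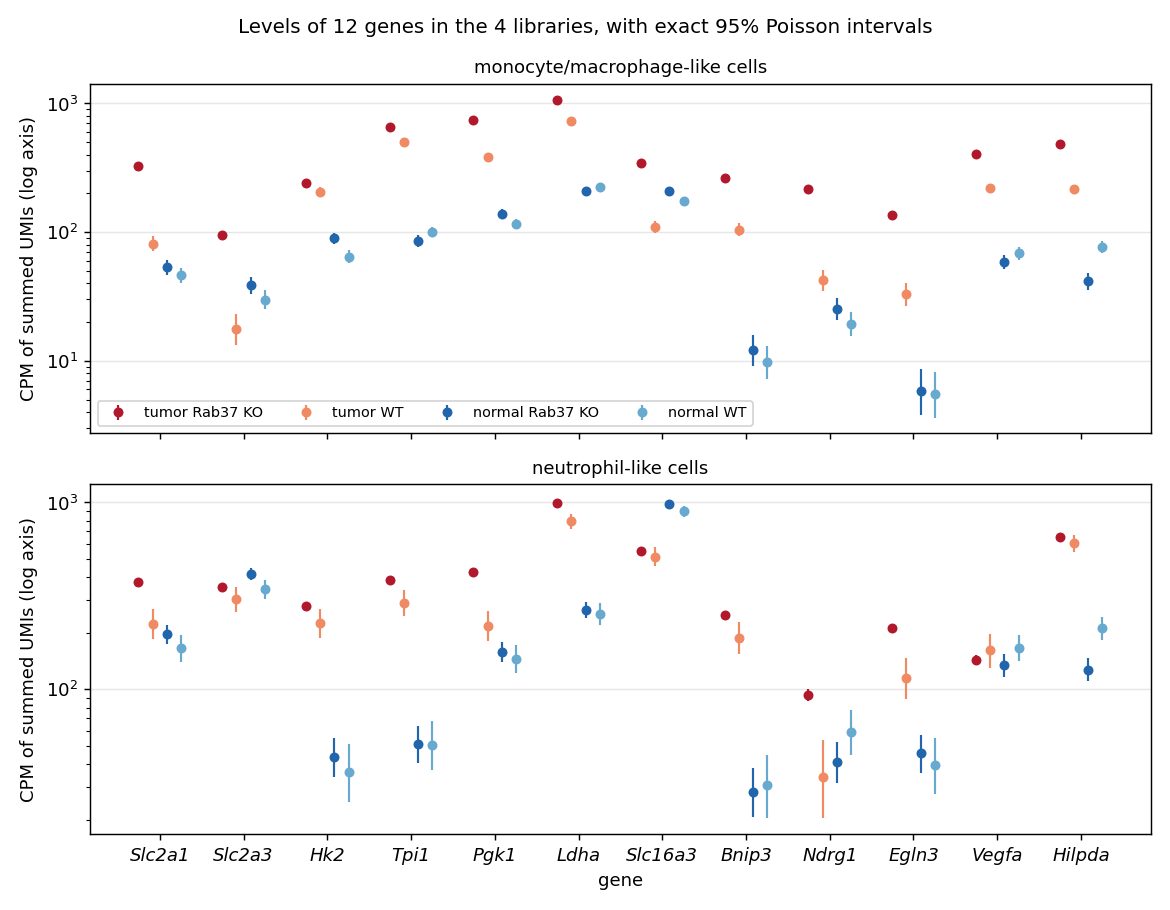
CPM (log axis) of selected members in monocytes and macrophages and in neutrophils, 1 point per library with its 95% Poisson interval, KO tumor, WT tumor, KO normal lung and WT normal lung. Egln3 in monocytes and macrophages stood at 136 CPM in KO tumor and 32.9 CPM in WT tumor, against 5.83 CPM in KO normal lung and 5.54 CPM in WT normal lung, while Slc16a3 in neutrophils was highest in normal lung.

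In neutrophils of KO mice 29 of 33 members were higher in tumor and 1 lower, where 36.9% of all genes were higher and 12.6% lower. In WT mice 24 of 31 were higher and 2 lower, where 38.0% of all genes were higher and 15.4% lower. The members' median log2 ratio was 1.52 in KO and 0.98 in WT mice, and that of all genes 0.28 in KO and 0.33 in WT mice. Tpi1, Hk2, Bnip3, Egln1 and Ankrd37 had wide folds, and Slc16a3 was lower in tumor in both genotypes. Neutrophils of tumor lay mostly in cluster 25, led by Cxcl3, Ccl3 and Ccl4, and cluster 17, led by Ifitm1 and Lrg1, and those of normal lung almost wholly in cluster 9, led by G0s2 and Acod1. The WT counts depended on these clusters. They were 13 higher and 5 lower with clusters weighted alike, and 13 of 30 members were higher without cluster 25. Both higher counts lay nearer the 38.0% of all genes given above than 24 of 31 did. That 38.0% was counted without these changes, and the shares of all genes under them are not given here. Weighting clusters alike used some with few cells, such as cluster 24 with 3 in WT normal lung.

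Hk2 in neutrophils had 279 CPM in tumor KO, 227 CPM in tumor WT, 43.6 CPM in normal KO and 36.2 CPM in normal WT cells. It was 6.4-fold higher (5.04 to 8.26) in KO and 6.25-fold higher (4.23 to 9.48) in WT tumor, and neither tumor value came near a normal one. Tpi1 had 387 CPM in tumor KO, 291 CPM in tumor WT, 51.2 CPM in normal KO and 50.5 CPM in normal WT cells. It was 7.56-fold higher in KO and 5.77-fold higher in WT tumor. Ldha had 994 CPM in tumor KO, 793 CPM in tumor WT, 267 CPM in normal KO and 254 CPM in normal WT cells, with the 2 tumor values above both normal ones. Pgk1 was 2.68-fold higher in KO and 1.5-fold higher in WT tumor, Gapdh 1.94-fold in KO and 1.65-fold in WT tumor, and Pkm 1.77-fold in KO and 1.76-fold in WT tumor. Both phosphofructokinase subunits were higher in KO tumor, Pfkp by 3.2-fold and Pfkl by 3.55-fold. In WT tumor Pfkp was 1.57-fold higher and Pfkl, at 1.44-fold, missed the threshold.

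Of the neutrophil transporters, Slc16a3 was lower in tumor, Slc2a3 differed by less than 1.5-fold, and Slc2a1 was higher in KO tumor. Slc16a3, the lactate exporter, had 547 CPM in tumor KO, 513 CPM in tumor WT, 977 CPM in normal KO and 898 CPM in normal WT cells. It was 1.79-fold lower (1.68 to 1.89) in KO and 1.75-fold lower (1.53 to 2.01) in WT tumor, so both normal values lay above both tumor ones. The glucose transporter Slc2a3 had 353 CPM in tumor KO, 304 CPM in tumor WT, 415 CPM in normal KO and 343 CPM in normal WT cells. These 4 values differed by less than 1.5-fold within each genotype. Slc2a1 was 1.91-fold higher (1.7 to 2.16) in KO tumor and 1.36-fold higher (1.06 to 1.73) in WT tumor, the second under the threshold.

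Among hypoxia-response genes of neutrophils, Bnip3 had 249 CPM in tumor KO, 189 CPM in tumor WT, 28.4 CPM in normal KO and 30.7 CPM in normal WT cells. It was 8.78-fold higher (6.53 to 12.1) in KO and 6.14-fold higher (4.02 to 9.68) in WT tumor. Egln3 had 213 CPM in tumor KO, 115 CPM in tumor WT, 45.5 CPM in normal KO and 39.5 CPM in normal WT cells, and both tumor values exceeded both normal ones. Ankrd37 had 271 CPM in tumor KO, 187 CPM in tumor WT, 36.6 CPM in normal KO and 28.6 CPM in normal WT cells, with the same order. Egln1, the main oxygen-sensing hydroxylase, was near the floor in normal lung, at 6.95 CPM in KO and 4.39 CPM in WT cells, and had 58.9 CPM in KO tumor and 30.6 CPM in WT tumor. Hilpda had 657 CPM in tumor KO, 604 CPM in tumor WT, 128 CPM in normal KO and 213 CPM in normal WT cells. WT normal lung was here above KO normal lung, and both were below tumor. Ndrg1 was 2.27-fold higher (1.76 to 2.98) in KO tumor and 1.73-fold lower (1.01 to 3.1) in WT tumor. Vegfa, which was several-fold higher in tumor monocytes and macrophages, had 144 CPM in tumor KO, 162 CPM in tumor WT, 135 CPM in normal KO and 167 CPM in normal WT cells in neutrophils, a difference under 1.5-fold. The median mitochondrial share of UMIs moved with tissue in neutrophils, at 1.46% in KO tumor and 0.552% in WT tumor, against 0.235% in KO normal lung and 0.218% in WT normal lung, and its part in these differences was not tested. Stress-list UMIs were 2.46% of those in neutrophils of KO tumor and 2.41% of WT tumor, against 2.31% of KO normal lung and 2.44% of WT normal lung.

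Dendritic cells, which prime T cells, had more members higher in tumor in KO than in WT mice. In KO mice 26 of 32 were higher in tumor and 3 lower, where 18.0% of all genes were higher and 26.7% lower. In WT mice 15 of 32 were higher and 2 lower, where 29.4% of all genes were higher and 16.6% lower. Tpi1 had 487 CPM in tumor KO, 202 CPM in tumor WT, 61.6 CPM in normal KO and 70.4 CPM in normal WT cells. Bnip3 had 75.1 CPM in tumor KO, 10.8 CPM in tumor WT, 6.69 CPM in normal KO and 7.96 CPM in normal WT cells, the WT tumor value on 3 UMIs. Only KO tumor stood apart for Bnip3, 11.2-fold higher (6.34 to 21.2) than KO normal lung, whereas the interval of the WT ratio, 1.36-fold higher (0.259 to 4.59), included 1. Ldha was 4.1-fold higher in KO and 1.88-fold higher in WT tumor. Slc16a3 had 144 CPM in tumor KO, 28.9 CPM in tumor WT, 38.8 CPM in normal KO and 43.4 CPM in normal WT cells, again with KO tumor apart from the other 3. Slc2a3 went the other way, with 3.36 CPM in tumor KO, 32.5 CPM in tumor WT, 25 CPM in normal KO and 24.7 CPM in normal WT cells. It was 7.43-fold lower (2.42 to 37.1) in KO tumor, but its KO tumor value rested on 3 UMIs and its WT tumor value on 9. These dendritic cells numbered 59 in KO tumor and 27 in WT tumor, against 177 in KO normal lung and 234 in WT normal lung.

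T cells also carried more glycolytic transcripts in tumor. In KO mice 26 of 31 members were higher and 1 lower, where 25.9% of all genes were higher and 11.4% lower, and in WT mice 20 of 31 were higher and 0 lower, where 36.6% of all genes were higher and 10.0% lower. With clusters weighted alike the higher members in WT mice numbered 13. That count lay nearer the 36.6% of all genes given above than 20 of 31 did. That 36.6% was counted without this weighting, and the share of all genes under it is not given here. Neutrophil-marker UMIs were 0.132% of those in T cells of KO tumor and 0.149% of WT tumor, against 0.0279% of KO normal lung and 0.00337% of WT normal lung, and their part was not tested. Pkm had 546 CPM in tumor KO, 554 CPM in tumor WT, 167 CPM in normal KO and 174 CPM in normal WT cells. Tpi1 had 243 CPM in tumor KO, 235 CPM in tumor WT, 50.2 CPM in normal KO and 57.6 CPM in normal WT cells. For both enzymes the 2 tumor values were close to each other and several-fold above the normal ones. Ldha was 2.25-fold higher in KO and 2.36-fold higher in WT tumor, and Hif1a 2.1-fold higher in KO and 1.79-fold higher in WT tumor. Slc16a3 had 61.2 CPM in tumor KO, 20.8 CPM in tumor WT, 9.66 CPM in normal KO and 5.12 CPM in normal WT cells. Vegfa had 65 CPM in tumor KO, 3.46 CPM in tumor WT, 2.5 CPM in normal KO and 2.68 CPM in normal WT cells, with KO tumor the highest. In that library 7 of 83 T cells held all 35 Vegfa UMIs, and the 3 largest T-cell clusters held few of them, with 1 UMI in cluster 1, 0 in cluster 2 and 2 in cluster 11. Cluster 1, led by Tnfrsf4, Ctla4 and Ikzf2 with Foxp3 among its top 10 genes, held 23 of 83 T cells in KO tumor and 24 of 59 in WT tumor, against 179 of 1502 in KO normal lung and 259 of 1642 in WT normal lung. Within cluster 1, whose comparison was chosen after the values were seen, 21 of 28 members were higher and 3 lower in KO tumor, where 24.4% of all genes were higher and 19.7% lower. In WT tumor 15 of 28 were higher and 1 lower, where 28.6% of all genes were higher and 15.5% lower. Cluster 11, compared in KO mice alone, held 35 of the 83 KO tumor T cells. The members' median log2 ratio in KO mice was 1.01 in cluster 1 and 0.39 in cluster 11. That of all genes was 0.04 in cluster 1 and 0.09 in cluster 11. Pgk1 in cluster 1 had 549 CPM in KO tumor against 165 CPM in KO normal lung, and 366 CPM in WT tumor against 162 CPM in WT normal lung.

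Alveolar macrophages, the resident macrophages of the air spaces, natural killer (NK) cells and B cells had fewer members higher in KO tumor than the classes above. In alveolar macrophages 11 of 33 members were higher and 1 lower in KO tumor, where 11.7% of all genes were higher and 7.79% lower. In WT tumor 15 of 32 were higher and 4 lower, where 20.1% of all genes were higher and 17.8% lower, but that library held 21 such cells and the higher members numbered between 8 and 16 across alternatives. Gapdh had 1485 CPM in tumor KO, 1714 CPM in tumor WT, 1446 CPM in normal KO and 1396 CPM in normal WT cells there. Pgam1 had 143 CPM in tumor KO, 373 CPM in tumor WT, 106 CPM in normal KO and 102 CPM in normal WT cells, so that WT tumor alone was high, and Pfkfb3 was 2.02-fold lower (1.62 to 2.54) in KO tumor. In NK cells 12 of 28 members were higher and 1 lower in KO tumor, where 15.6% of all genes were higher and 19.1% lower. In WT tumor 3 of 24 NK-cell members were higher and 3 lower, where 27.5% of all genes were higher and 14.2% lower. The alternatives moved the higher members of NK cells to between 5 and 25 in KO and between 1 and 16 in WT tumor, the largest counts being those with classes taken from each cell's own markers. Ldha had 346 CPM in tumor KO, 432 CPM in tumor WT, 279.7 CPM in normal KO and 309.8 CPM in normal WT cells.

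In B cells 8 of 30 members were higher and 3 lower in KO tumor, where 23.3% of all genes were higher and 15.3% lower. In WT tumor 6 of 28 were higher and 3 lower, where 30.8% of all genes were higher and 12.6% lower. Both shares of higher members were near or below that of all genes. This did not hold with classes taken from each cell's own markers, where 23 of 31 members were higher in KO tumor and 15 of 29 in WT tumor, against 22.3% of all genes in KO and 36.4% in WT mice. Across all alternatives the higher members numbered between 2 and 23 in KO and between 1 and 15 in WT tumor. Gapdh in B cells had 511 CPM in tumor KO, 548 CPM in tumor WT, 516 CPM in normal KO and 467 CPM in normal WT cells. Ldha had 152 CPM in tumor KO, 156 CPM in tumor WT, 139.8 CPM in normal KO and 129 CPM in normal WT cells, and Eno1 was 1.18-fold higher in KO tumor. These enzymes differed by less than 1.5-fold between tissues. Of the 8 members higher in KO tumor B cells, Vegfa, Hk2, Pfkfb3, Slc2a1 and Hilpda had intervals above 1. Hk2 was 4.51-fold higher (2.19 to 8.74) and Slc2a1 3.5-fold higher (1.98 to 5.9) in KO tumor.

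Shares of cells with at least 1 UMI were compared after each cell had been thinned to 1500 UMIs. Egln3 was then seen in 23.4% of neutrophils in KO tumor and 16.0% in WT tumor, against 5.25% in KO normal lung and 3.07% in WT normal lung. In monocytes and macrophages it was seen in 18.0% of cells in KO tumor and 5.50% in WT tumor, against 0.837% in KO normal lung and 0.178% in WT normal lung. Both classes had larger shares in tumor. B cells, at median depths of 2811 to 3880 UMIs, were set beside them as the class with least expected hypoxia transcripts. They showed Egln3 in 0 of 639 cells in KO normal lung and in 0.297% in WT normal lung. Where no cell was positive, the share that 3 cells would make is given as a bound, here 0.469%. It lies under the upper end of the 95% interval. Whether UMIs of these genes in B cells were free RNA was not tested. Bnip3 was seen in 25.1% of neutrophils and 27.7% of monocytes and macrophages in KO tumor, and in 16.0% of neutrophils and 14.7% of monocytes and macrophages in WT tumor. In normal lung Bnip3 was seen in 4.13% of KO and 3.63% of WT neutrophils and in 1.26% of KO and 1.42% of WT monocytes and macrophages. Bnip3 was seen in 0.626% of KO and 1.04% of WT B cells of normal lung. Neither Bnip3 nor Egln3 was seen in the 64 B cells of KO tumor or the 52 of WT tumor. By the same bound these allow shares of up to 4.69% and 5.77%. Before thinning, Bnip3 was seen in 3.64% of WT tumor B cells. Tumor shares of both genes lay above normal ones in both myeloid classes, and the 5.50% for Egln3 in WT tumor monocytes and macrophages is under the share that 0 of 52 B cells allows. Hilpda was seen in 33.5% of neutrophils and 36.8% of monocytes and macrophages in KO tumor, where its share in B cells was 4.69%. In WT tumor it was seen in 24.7% of neutrophils and 22.9% of monocytes and macrophages, and in 0 B cells. Hilpda in normal lung was seen in 8.26% of KO and 10.9% of WT neutrophils, against 5.32% of KO and 6.54% of WT B cells. Before thinning, Egln3 was seen in 42.4% of neutrophils in KO tumor (median depth 3480 UMIs) and 21.0% in WT tumor (2123 UMIs), against 8.21% in KO normal lung (2609.5 UMIs) and 6.54% in WT normal lung (2242 UMIs). Thinning left out 46 neutrophils of KO tumor, 43 of WT tumor, 27 of KO normal lung and 24 of WT normal lung.

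The members were not evenly spread over the clusters of tumor neutrophils. Cluster 25 was set against cluster 17 in each tumor library, a comparison chosen after the values were seen. In KO tumor 25 of 33 members were higher in cluster 25 and 2 lower, where 22.9% of all genes were higher and 23.1% lower, and in WT tumor 26 of 31 were higher and 3 lower, where 31.5% of all genes were higher and 23.7% lower. Hilpda had 1161 CPM in cluster 25 against 135 CPM in cluster 17 of KO tumor, and 1783 CPM against 85.4 CPM in those of WT tumor. Egln3 had 378 CPM against 63.8 CPM in KO tumor and 335 CPM against 42.7 CPM in WT tumor. Slc2a3 ran the other way, with 265 CPM in cluster 25 against 488 CPM in cluster 17 of KO tumor and 123 CPM against 345 CPM in WT tumor. The same direction in both libraries held for Hilpda, Egln3 and Slc2a3.

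Tumor macrophages showed a like gradient. Cluster 13 was set against cluster 26, again after the values were seen. In KO tumor 27 of 33 members were higher in cluster 13 and 2 lower, where 22.4% of all genes were higher and 29.1% lower, and in WT tumor 17 of 32 were higher and 1 lower, where 24.9% of all genes were higher and 20.4% lower. Egln3 had 179 CPM in cluster 13 against 11 CPM in cluster 26 of KO tumor, and 108 CPM against 18.2 CPM in WT tumor. Bnip3 had 337 CPM against 27.6 CPM in KO tumor and 237 CPM against 79.8 CPM in WT tumor. Aldoc, the brain-type aldolase, was lower in cluster 13 of both libraries, with 7.88 CPM in cluster 13 against 27.6 CPM in cluster 26 of KO tumor and 4.7 CPM against 25.6 CPM in WT tumor. The other lower member of KO tumor was Pfkfb4, with 29.4 CPM in cluster 13 against 44.1 CPM in cluster 26. Pf4 and Ppbp, which lead cluster 13, are also platelet genes. Of other platelet genes, Gp9 and Gp1bb had 0 UMIs in that cluster of both tumor libraries. Itga2b had 8 in KO and 0 in WT tumor, and Clec1b had 12 in KO and 1 in WT tumor. Whether cluster 13 held platelet RNA was not tested.

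Cluster 8, a monocyte cluster chosen after the values were seen, held 74 cells of KO tumor and 17 of WT tumor, against 104 of KO normal lung and 112 of WT normal lung. There 16 of 30 members were higher and 0 lower in KO tumor, where 25.6% of all genes were higher and 11.5% lower, and 16 of 28 higher and 3 lower in WT tumor, where 28.2% of all genes were higher and 20.0% lower. Bnip3 in cluster 8 had 52.3 CPM in KO tumor against 7.43 CPM in KO normal lung, and 95.9 CPM in WT tumor against 14.8 CPM in WT normal lung. Tpi1 was 282 CPM against 75.6 CPM in KO and 352 CPM against 94 CPM in WT mice. Slc2a1 was close to level there, with 79.3 CPM in KO tumor against 65.7 CPM in KO normal lung and 64 CPM in WT tumor against 63.1 CPM in WT normal lung. Bnip3 and Tpi1 thus differed between tissues within a cluster that both held, and Slc2a1 differed by less than 1.5-fold.

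**Figure D3:**
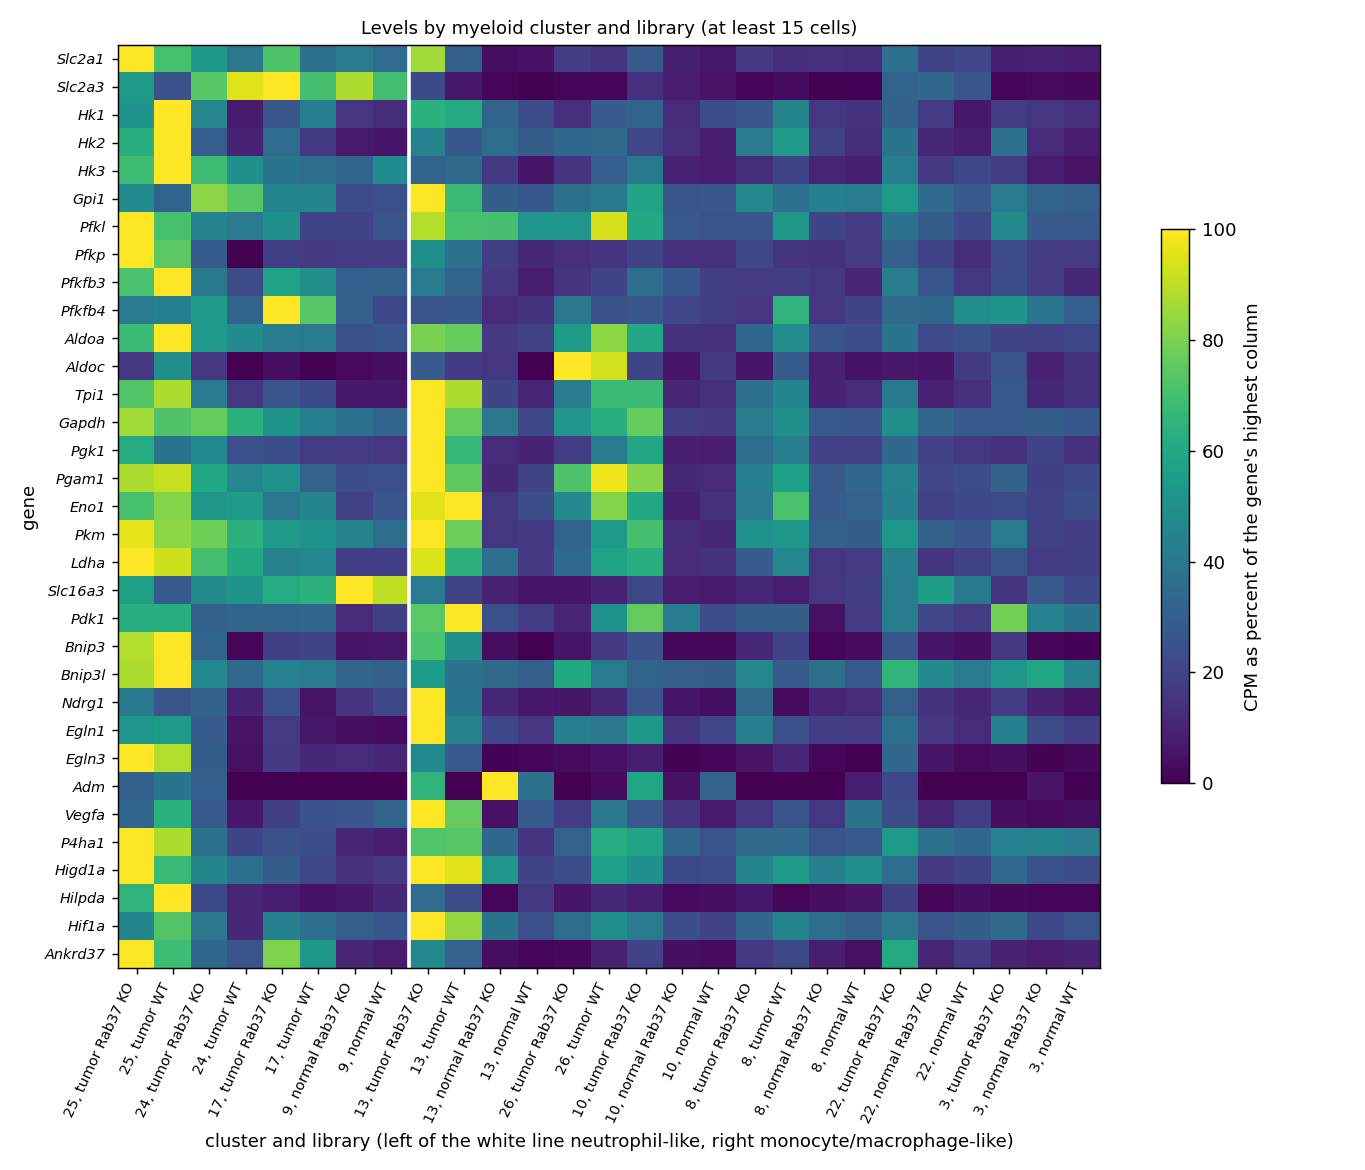
Level of each member (rows) in selected clusters of neutrophils and of monocytes and macrophages in each library (columns), as CPM relative to the gene's highest column. Columns have at least 15 cells in that library, and alveolar macrophage clusters are not drawn. Among the columns drawn, the highest was cluster 25 for 15 members and cluster 13 for 14 of the 33.

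The KO and WT tumor libraries were compared class by class, and these ratios share their libraries with the tumor ratios above. Monocytes and macrophages had 18 of 33 members higher in KO tumor and 1 lower, where 21.3% of all genes were higher and 21.4% lower. Slc2a3, Ndrg1, Egln3, Slc2a1, Slc16a3 and Ankrd37 had the widest folds, apart from Adm with 1 UMI in WT tumor. Slc2a1 was 4.01-fold higher (3.52 to 4.59) in KO tumor and Slc2a3 5.34-fold higher (4.04 to 7.21). Slc16a3 was 3.11-fold higher (2.78 to 3.5) and Pfkp 2.26-fold higher (1.97 to 2.6). The later enzymes differed to unlike degrees, with Pgk1 at 1.96-fold, Pkm at 1.57-fold, Ldha at 1.44-fold, Tpi1 at 1.31-fold, and Aldoa, Pgam1 and Eno1 within 1.1-fold. So did the early ones. Gpi1 had 599 CPM in KO tumor against 309 CPM in WT tumor, but Hk2 had 241 CPM against 206 CPM and Pfkl 81.9 CPM against 87.0 CPM. Bnip3 was 2.53-fold higher (2.24 to 2.85), Egln1 2.22-fold higher (1.9 to 2.6), Hilpda 2.24-fold higher (2.06 to 2.44) and Vegfa 1.84-fold higher (1.69 to 2). Aldoc was 2.48-fold lower (1.76 to 3.45) in KO tumor. Ribosomal protein UMIs were 14.3% of the KO tumor library and 18.5% of the WT tumor library, and the neutrophil-marker share given above was also higher in KO, at 2.38% against 1.04%; their part was not tested.

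These libraries held different macrophages, and the genotype ratios differed between clusters 13 and 26. Cluster 13 made up 587 of 846 cells of the class in KO tumor and 47 of 230 in WT tumor, while cluster 26 made up 25 in KO tumor and 138 in WT tumor. Within cluster 13, 11 of 33 members were higher in KO tumor and 0 lower, where 15.1% of all genes were higher and 25.6% lower. Slc2a1 had 416 CPM in KO tumor against 146 CPM in WT tumor (ratio 2.85, 2.22 to 3.73), and Slc16a3 403 CPM against 193 CPM (ratio 2.09, 1.68 to 2.64). Bnip3 had 337 CPM against 237 CPM (ratio 1.42, 1.16 to 1.75) and Tpi1 764 CPM against 669.6 CPM (ratio 1.14, 1.01 to 1.29), both under 1.5-fold. Within cluster 26 the direction turned, with 1 of 32 members higher in KO tumor and 19 lower, where 17.7% of all genes were higher and 17.6% lower. Pgk1 there had 162 CPM in KO tumor against 369 CPM in WT tumor (ratio 0.439, 0.348 to 0.548), Ldha 446 CPM against 748 CPM (ratio 0.597, 0.519 to 0.684), and Slc2a1 88.2 CPM against 74.9 CPM (ratio 1.18, 0.833 to 1.64). Without cluster 13 the class had 8 members higher and 3 lower in KO tumor, and with clusters weighted alike in both libraries 7 higher and 0 lower. The shares of all genes under these changes are not given here, so these counts have no background beside them.

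**Figure D4:**
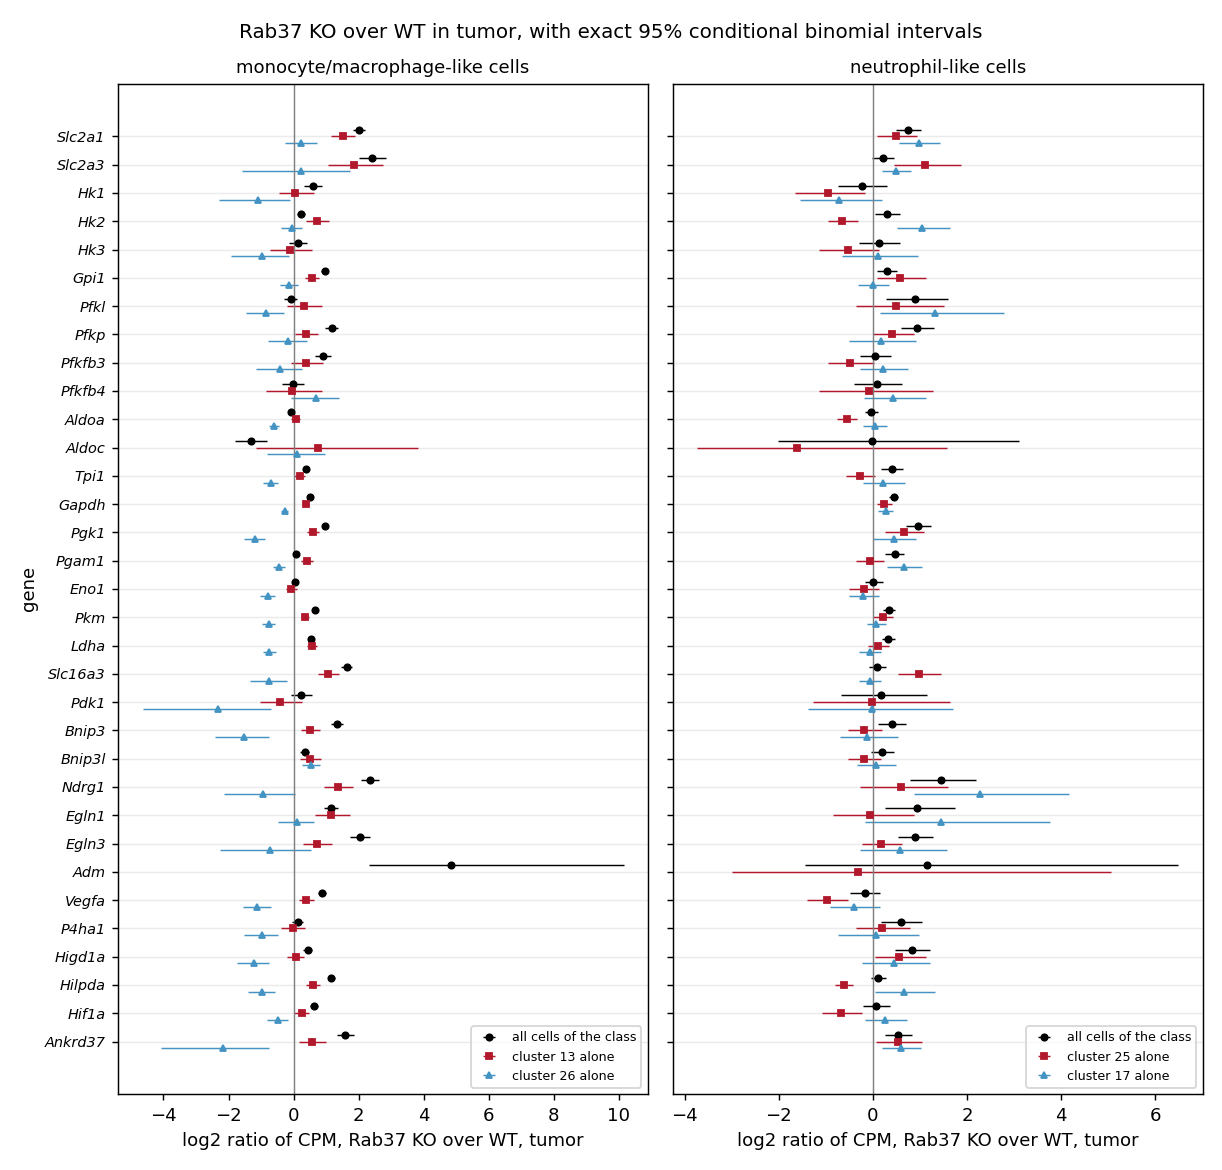
Ratio of Rab37 KO to WT tumor CPM (log2 axis) with 95% intervals for each member, in all cells of 2 classes and within their clusters 13 and 26 (monocytes and macrophages) or 17 and 25 (neutrophils). Monocytes and macrophages had 18 members higher in KO tumor, cluster 13 had 11, and cluster 26 had 1 higher and 19 lower.

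Tumor neutrophils had 10 of 33 members higher in KO and 0 lower, where 14.5% of all genes were higher and 20.9% lower. Ndrg1 was 2.73-fold higher (1.73 to 4.56), Pgk1 1.94-fold higher (1.62 to 2.35), Egln3 1.85-fold higher (1.44 to 2.42) and Slc2a1 1.68-fold higher (1.4 to 2.02). Cluster 25 held 586 of 1297 KO neutrophils and 75 of 205 WT neutrophils. Within it 4 of 33 members were higher and 6 lower in KO tumor, where 11.5% of all genes were higher and 38.1% lower. Within cluster 17, 8 of 31 were higher and 1 lower, where 16.5% of all genes were higher and 19.8% lower. Slc2a1 was higher in KO in both, with 482 CPM against 341 CPM in cluster 25 and 349 CPM against 178 CPM in cluster 17, although only cluster 17 passed 1.5-fold. Hilpda differed in direction, with 1161 CPM in KO against 1783 CPM in WT cells of cluster 25 and 135 CPM in KO against 85.4 CPM in WT cells of cluster 17.

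Tumor dendritic cells had 25 of 32 members higher in KO and 2 lower, where 17.4% of all genes were higher and 23.7% lower. Slc16a3 was 4.97-fold higher (2.45 to 11.8) and Tpi1 2.41-fold higher (1.82 to 3.24) in KO tumor, with 59 KO and 27 WT cells behind them. Tumor T cells had 9 of 30 higher and 3 lower, where 17.6% of all genes were higher and 21.6% lower, and Ldha, Pkm and Tpi1 differed by less than 1.1-fold. NK cells had 5 of 20 higher and 2 lower, where 20.4% of all genes were higher and 21.7% lower. B cells had 5 of 20 higher and 2 lower, where 16.7% of all genes were higher and 21.7% lower. Alveolar macrophages leaned the other way, with 2 of 32 higher in KO and 10 lower, where 20.9% of all genes were higher and 15.9% lower. Pgam1 was 2.6-fold lower (2.04 to 3.29), Eno1 2.51-fold lower (1.92 to 3.24) and Hk2 2.26-fold lower (1.62 to 3.1) in KO alveolar macrophages, beside 21 cells in WT tumor. Across alternatives the members higher in KO tumor numbered between 4 and 14 in T cells, 2 and 11 in NK cells, 0 and 17 in B cells, and 1 and 5 in alveolar macrophages.

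In normal lung up to 4 members of a class were higher and up to 3 lower in KO, and across alternatives neither count passed 6 in any class but neutrophils. Neutrophils had 1 of 31 members higher in KO and 2 lower, where 15.9% of all genes were higher and 10.9% lower. But with clusters weighted alike 5 were higher and 12 lower, where 37.1% of all genes were higher. The share of all genes lower under that weighting is not given here. That weighting counted cluster 17, with 6 cells in each library, and cluster 24, with 7 KO and 3 WT cells, as much as cluster 9. Monocytes and macrophages had 1 of 33 higher and 3 lower, where 7.53% of all genes were higher and 7.40% lower. Hilpda was the member lower in KO in both, 1.67-fold lower (1.36 to 2.04) in neutrophils and 1.86-fold lower (1.55 to 2.24) in monocytes and macrophages, and Pfkfb3 was 1.55-fold higher (1.27 to 1.88) in KO monocytes and macrophages. Alveolar macrophages had 0 of 33 higher and 2 lower, where 3.31% of all genes were higher and 6.62% lower, and dendritic cells 1 of 32 higher and 3 lower, where 11.5% of all genes were higher and 8.36% lower. Vegfa in dendritic cells had 45.5 CPM in KO against 88.7 CPM in WT lung. NK cells had 4 of 28 higher and 0 lower, where 10.9% of all genes were higher and 8.02% lower. T cells had 2 of 32 higher and 1 lower, where 6.64% of all genes were higher and 6.18% lower. B cells had 2 of 30 higher and 2 lower, where 8.72% of all genes were higher and 6.56% lower.

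Genes of neighbouring pathways are given from lists of the same kind. Of 24 other HIF targets, 15 of 21 measured in monocytes and macrophages were higher and 1 lower in KO tumor, with a median log2 ratio of 1.5. In WT tumor 11 of 20 were higher and 3 lower, with a median of 0.78. Of all genes in this class, 17.3% were higher and 23.0% lower in KO tumor, and 21.2% higher and 26.1% lower in WT tumor. Ero1l, an oxidase of protein folding, had 379 CPM in KO tumor against 36.4 CPM in KO normal lung, and 112 CPM in WT tumor against 31.3 CPM in WT normal lung. Mif, a cytokine, had 765 CPM against 118 CPM in KO and 604 CPM against 122 CPM in WT mice. Arg1, the arginase of alternatively activated macrophages, had 2349 CPM in KO tumor against 0.933 CPM in KO normal lung, and 1015 CPM in WT tumor against 2.77 CPM in WT normal lung. In neutrophils 15 of 19 other HIF targets were higher and 1 lower in KO tumor, and 8 of 13 higher and 0 lower in WT tumor. Of all genes in neutrophils, 36.9% were higher and 12.6% lower in KO tumor, and 38.0% higher and 15.4% lower in WT tumor. Fam162a, a mitochondrial HIF target, was 17.2-fold higher (11.1 to 28.2) in KO and 7.49-fold higher (4.16 to 14.5) in WT tumor neutrophils.

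The remaining lists are read against the shares of all genes given above. Of the 7 pentose phosphate genes measured in monocytes and macrophages, 1 was higher and 0 lower in each genotype, and this was Pgd, with 180.1 CPM in KO tumor against 99.1 CPM in KO normal lung. In neutrophils 3 of 7 were higher and 1 lower in each genotype, with G6pdx, which opens the pathway, 4.81-fold higher (3.37 to 7.08) in KO tumor and Taldo1 1.91-fold lower (1.81 to 2.01). Of the genes of pyruvate entry and the tricarboxylic acid cycle, 2 of 16 in monocytes and macrophages were higher and 1 lower in KO tumor, and 3 were higher and 2 lower in WT tumor. In neutrophils 8 of 13 were higher and 1 lower in KO, and 3 of 9 higher and 1 lower in WT tumor. Of other glycolysis genes, 3 of 17 in monocytes and macrophages were higher and 4 lower in KO tumor, and 3 of 12 higher and 2 lower in WT tumor. Eno3, the muscle enolase, had 11.1 CPM in KO tumor against 66.5 CPM in KO normal lung, and 10.1 CPM in WT tumor against 77.8 CPM in WT normal lung. In neutrophils 4 of 11 other glycolysis genes were higher and 1 lower in KO tumor, and 3 of 5 higher and 1 lower in WT tumor. Of the regulators of HIF, 1 of 10 in monocytes and macrophages was higher and 4 lower in KO tumor, and 2 were higher and 4 lower in WT tumor, with Hsp90aa1 2.47-fold lower (2.41 to 2.53) in KO and 3.43-fold lower (3.27 to 3.6) in WT tumor. In neutrophils 2 of 10 were higher and 1 lower in KO, and 1 of 5 higher and 0 lower in WT tumor. Of the 16 dissociation-stress genes, 1 was higher and 9 lower in monocytes and macrophages of KO tumor, and 0 higher and 10 lower in those of WT tumor. In neutrophils 6 stress genes were higher and 1 lower in KO tumor, and 4 higher and 3 lower in WT tumor.

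Within the genotype comparison of tumor, other HIF targets of monocytes and macrophages numbered 13 higher and 1 lower in KO of 22. Their median log2 ratio was 0.86. Of all genes in this class, 21.3% were higher and 21.4% lower in KO tumor. Mxi1, a Myc antagonist, was 3.55-fold higher (3.07 to 4.12) and Ero1l 3.39-fold higher (3.03 to 3.81). In tumor neutrophils 8 of 19 other HIF targets were higher and 0 lower, where 14.5% of all genes were higher and 20.9% lower. Stress-list genes of tumor monocytes and macrophages were higher in KO for 6 of 16 and lower for 0, with Egr1 3.7-fold higher (3.45 to 3.97). Other glycolysis genes were higher for 2 of 17 and lower for 7, and Mpc1, a subunit of the mitochondrial pyruvate carrier, was 1.99-fold lower (1.83 to 2.16) in KO.

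Members were alike to different degrees across the 28 sums of 7 classes and 4 libraries, which share library depth and tissue. Spearman's rho was 0.92 for Pgam1 and Pkm, 0.90 for Gapdh and Bnip3, 0.89 for Pgk1 and Egln3, 0.83 for Ndrg1 and Vegfa, and 0.86 for Egln1 and Higd1a. Pkm had the highest median rho with the other members, 0.69, and Adm the lowest, at -0.09, over 429 UMIs. Slc2a3 and Aldoc had a rho of -0.50. Their highest sums also differed, since Slc2a3 was highest in normal KO neutrophils at 415 CPM and Aldoc in WT tumor alveolar macrophages at 65.9 CPM. The highest sum lay in monocytes and macrophages of KO tumor for Tpi1, Gapdh, Pgk1, Pgam1, Eno1, Pkm, Ldha and Bnip3, and in neutrophils of KO tumor for Slc2a1, Hk2, Egln3, Hilpda and Ankrd37. Slc2a1 had 377 CPM in KO tumor neutrophils and 326 CPM in KO tumor monocytes and macrophages, and Egln3 had 213 CPM in KO tumor neutrophils and 136 CPM in KO tumor monocytes and macrophages.

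**Figure D5:**
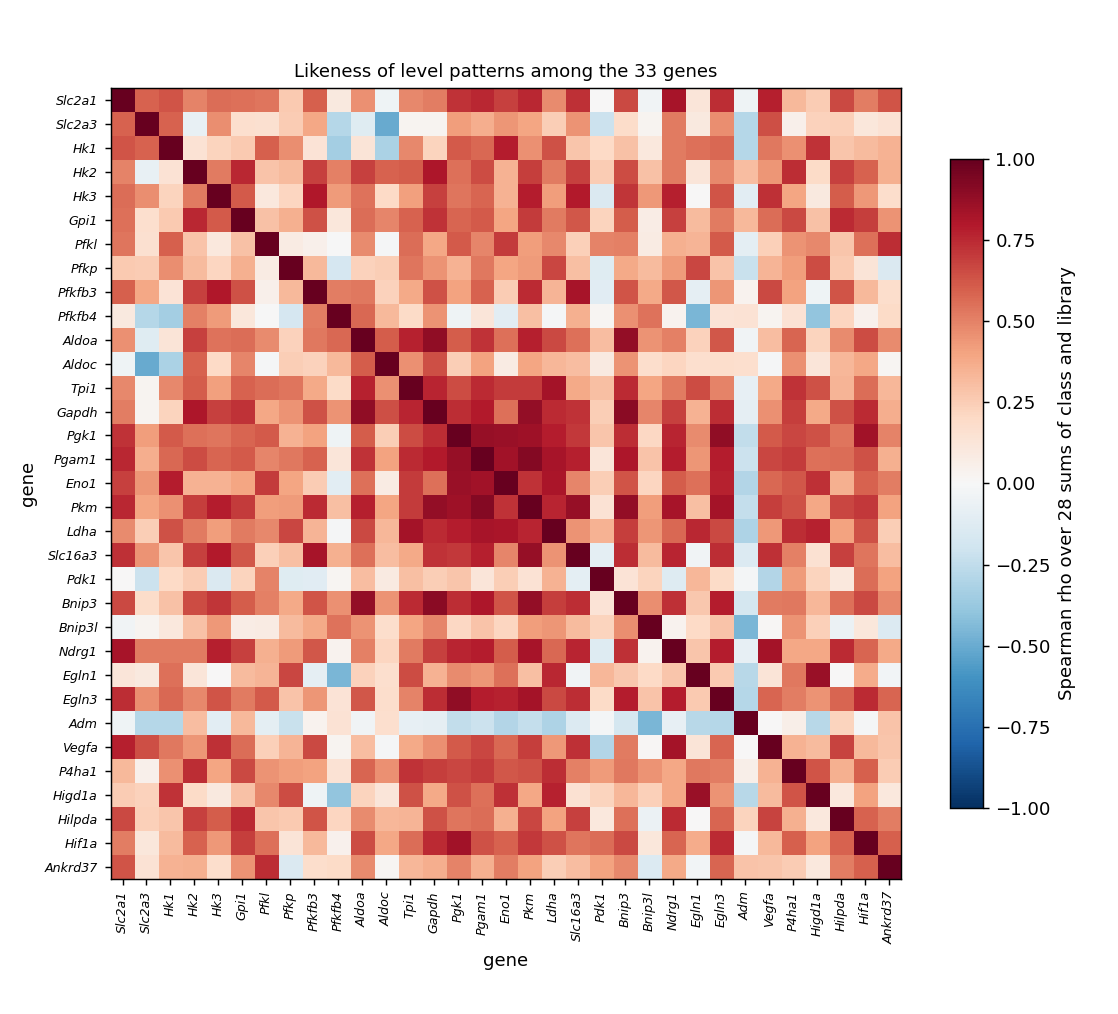
Spearman's rho between pairs of the 33 members over 28 sums of cell class and library, both axes in the order of the list. Pgam1 and Pkm had a rho of 0.92, and the lowest median rho with the other members were those of Adm (-0.09), Pfkfb4 (0.13), Pdk1 (0.20) and Slc2a3 (0.21).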

How the data were processed

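Live CD45+ cells of 4 libraries were measured by 10x 3′ single-cell RNA sequencing, per the labels' protocols. The deposited files hold raw UMI counts per feature and barcode, with no normalization by the authors. Per the submitters' processing notes the build was mm10; no aligner is named in these sources. Counting collapses reads to molecules, so levels depend on capture and on reads that share sequence between gene copies; of the 2 features named Aldoa, the one with nearly all UMIs was used. A cell needed 200 genes and could have up to 10% of its UMIs from mitochondrial genes. Scrublet doublets (4 in KO tumor, 3 in WT tumor, 80 in KO and 179 in WT normal lung) were removed. Clusters were made with scanpy 1.11.5 and leidenalg 0.10.2 from 2000 variable genes and 30 principal components at resolution 1, without the members, the other lists, Rab37, Spp1 and sex-linked genes; names came from marker genes with at least 3 detected markers.

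UMIs were summed by class and library and divided by the sum of all genes (CPM). Ratios have exact conditional binomial intervals, levels exact Poisson intervals and shares Clopper-Pearson intervals, at 95%, all for counting error only. With 1 library in each group no test across samples was possible. The members and lists were chosen with earlier results of these data known. All 33 members are named or counted; from other lists, up to 4 genes with the largest ratio among those with at least 50 CPM in the higher library and 10 UMIs over both could be named. Alternatives changed filters, doublets, class rules, weighting, centring, count minimums, depth and sex of cells; 3 were added after the values were seen (5 UMIs expected in the shallower library, and leaving out cluster 13 or 25). Motif search used RefSeq promoters of GRCm38.p6. The scripts were tested on simulated data.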

Additional observations from a re-analysis of the deposited data

Results flagged for a closer look

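5 differences between effects stood out because the same contrast ran in opposite directions in 2 groups. None of these differences was tested, since each group was 1 library. In monocytes and macrophages, Slc2a3 had a tumor against normal log2 ratio of 1.29 in KO mice and of -0.76 in WT mice, a difference of 2.04. The lactate exporter Slc16a3 had log2 ratios of 0.71 in KO and -0.67 in WT mice in the same class, a difference of 1.38. Both genes were compared between tissues that held different macrophage clusters. With each cluster held by both tissues weighted alike, neither gene was 1.5-fold lower in WT tumor. In neutrophils Ndrg1 had log2 ratios of 1.18 in KO and -0.79 in WT mice, a difference of 1.98, on 34.2 CPM in WT tumor and 59.3 CPM in WT normal lung. In B cells Hilpda had log2 ratios of 0.80 in KO and -2.26 in WT mice, a difference of 3.06, and the WT value rested on 2 UMIs in 55 WT tumor B cells, under the floor of 3 counts, with a tumor to normal ratio of 0.209 (0.0251 to 0.769). Hilpda in monocytes and macrophages had a KO against WT log2 ratio of 1.16 in tumor and of -0.89 in normal lung, a difference of 2.06.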

How the results depend on the processing

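No paired analysis was possible because each group has 1 library. Counts of members higher or lower were recomputed under every listed alternative for neutrophils and for monocytes and macrophages, and 185 of 216 such counts stayed within 1.5 times. Clusters weighted alike gave, for tumor against normal in WT neutrophils, 13 higher and 5 lower, and without cluster 25 they gave 13 higher; every cell weighted alike gave 1 lower. For WT monocytes and macrophages the lower members numbered 0 with clusters alike, 1 without cells rich in neutrophil RNA, and 1 with cells of Xist alone. KO neutrophils had 2 lower with clusters alike. For KO against WT in tumor, neutrophils had 2 lower with clusters alike, 1 with cells alike and 1 without the 5% deepest cells. Monocytes and macrophages had 7 higher and 0 lower with clusters alike, and 8 higher and 3 lower without cluster 13. In normal lung the KO against WT counts of neutrophils became 1 lower at 5% mitochondrial UMIs, 0 higher and 1 lower with classes from each cell's own markers, 5 higher and 12 lower with clusters alike, 2 higher with cells alike, 0 higher and 1 lower at 30 UMIs, 3 higher and 1 lower without the deepest cells, and 4 lower in cells of either sex alone. Those of monocytes and macrophages became 1 lower with own markers, 1 lower with cells alike, 0 higher without the deepest cells and 4 higher in cells with Y-linked UMIs alone. The shares of all genes under each alternative are not given beside these counts. The cause of these shifts was not tested. Across alternatives the members' median log2 ratio for tumor against normal ran between 1.06 and 1.88 in KO and 1.04 and 1.35 in WT monocytes and macrophages, between 1.13 and 1.65 in KO and 0.42 and 1.12 in WT neutrophils, and for KO against WT tumor monocytes and macrophages between 0.09 and 0.65. In the other classes 365 counts stayed within 1.5 times and 115 did not. The WT tumor library, with 644 cells, limits every comparison it enters.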

Other observations

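Group 2 innate lymphoid cells, found almost only in the normal libraries, carried high Hilpda, with 1684 CPM in 51 KO cells and 1169 CPM in 38 WT cells. Their Ldha was 1019 CPM in KO and 986 CPM in WT lung. For comparison, normal lung T cells had 73.3 CPM of Hilpda in KO and 65 CPM in WT mice. Cluster 27, led by Rhox5, Col3a1 and Hmga2 and left without a cell type name, occurred only in tumor, with 44 cells in KO and 12 in WT mice. Adm had 97.9 CPM in its KO cells, above any of the 7 immune classes, where it reached at most 24.7 CPM. The members made up 1.02% of the UMIs of cluster 27 in KO tumor and 0.664% in WT tumor.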
